A study of Saccharomyces cerevisiae with 36 samples.

Results

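The loss of Ecm2 was examined on 2 of the 36 arrays of a survey of splicing in 18 strains of budding yeast, *Saccharomyces cerevisiae*. They are the 2 arrays labelled as ecm2 against BY4741, chosen by these labels. On array 1 the ecm2 RNA was in channel 2 and the wild-type RNA in channel 1, and on array 2 the channels were exchanged. The ecm2 strain belongs to a set of deletion strains grown at 26 °C, and BY4741, a haploid laboratory strain of mating type a, was its wild type. The strains set beside it here, hsp104, prp17 and msl1, came from the same set, were grown at the same temperature and were hybridised against BY4741 in the same way, with 2 arrays each. Total RNA was labelled in all of them. Each of these strains was a single deletion, and no second isolate or plasmid that restores the gene is given in the labels. Counts and rankings over the 18 strains also take in prp4-1a, held at 37 °C for 2 h against its own wild type. They take in dbr1 too, for which no temperature is recorded here. The labels do not say whether the 2 ecm2 arrays held RNA of separate cultures. The p-values therefore reflect how far arrays lie apart, and that distance may be technical.

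Introns are removed by the spliceosome, which is assembled from small nuclear ribonucleoproteins (snRNPs) and rebuilt into its catalytic form at each intron. Ecm2 is a protein of the activated spliceosome that contacts the base-paired U2 and U6 RNAs near the catalytic centre, and yeast survives without it. Introns are rare in yeast, and the ribosomal protein genes, which are transcribed at a high rate, hold a large share of them. Among the strains used for comparison, prp17 lacks a protein that acts at the second catalytic step, msl1 lacks a protein of the U2 snRNP, and hsp104 lacks a protein disaggregase rather than a splicing factor.

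Each array carried 3456 spots, or 864 probes printed 4 times, and 724 of the probes had a gene symbol. Probe roles were inferred from the order of a gene's probes as junction (the joined exons), intron and exon, which gave 230 introns in 223 genes. All values below are log2 ratios of ecm2 over wild type. Subtracting a gene's exon probe from its intron probe gives the intron index, and subtracting it from the junction probe gives the junction index. A feature was tested where both ecm2 arrays gave a value. A change is an adjusted p under 0.05 from limma, and errors are standard errors (SE) from that fit with n = 2 arrays. Usable spots numbered 2422 of 2896 with a gene symbol on array 1 and 2209 on array 2. The number of arrays limits the precision. Of 62 probes with no symbol and a value on both arrays, 3 were raised (4.84%) and 21 lowered (33.9%), and they are not used below.

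No named probe matched ECM2, so the deletion itself could not be checked on these arrays. The direction of the ratio is likely rather than settled, and rests on deleted genes that have probes. The MUD1 exon probe averaged −2.56 ± 0.10 (SD, n = 2) in the mud1 strain, and on the 2 ecm2 arrays it stood at 0.29 and −0.01. In the gcr3 strain, which lacks STO1, the STO1 exon probe averaged −5.59 ± 0.31 (SD, n = 2). On the 2 ecm2 arrays the STO1 exon probe stood at −0.61 and −0.27. Junction probes averaged −3.91 for MUD1 in mud1 and −5.46 for STO1 in gcr3, and intron probes −1.80 and 1.06. With the sign turned, every direction given here would turn. No array with the same channel order correlated below −0.3 with an ecm2 array, and the lowest correlation over named probes was −0.15. These correlations would be the same with every sign turned, so they cannot decide the direction.

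Deletion of ECM2 raised the intron index of 8 of 201 introns tested (3.98%) and lowered that of none by the limma test. At an unadjusted p under 0.05, 19 introns were higher and 3 lower. The median over all tested introns was 0.04. TAN1 and COF1 stood far above the other 6, MAF1, APE2, MOB2, GCR1, NCE101 and VPS75. All 8 raised introns lay in genes other than ribosomal protein genes, where they were 8 of 103 tested, against 0 of 98 in ribosomal protein genes. The medians were 0.13 in the first class and −0.05 in the second. Of the 230 introns, 29 were not tested, 27 of them outside the ribosomal protein genes and among them those of ACT1 and TUB1. In the same fit 14 of the other 17 strains had more introns raised or lowered than ecm2, and 3 (cus2, hsp104 and snu40) had fewer.

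**Figure D1:**
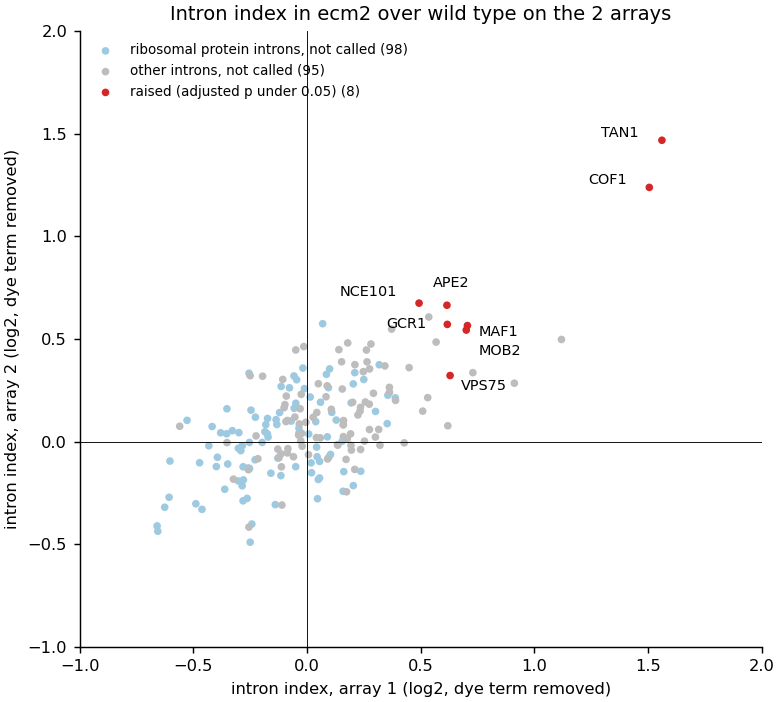
Intron index in ecm2 over wild type for the 201 tested introns, array 1 on the x axis and array 2 on the y axis (log2, after removal of the dye term of the fit). Red points are the 8 raised introns, blue points are introns of ribosomal protein genes and grey points other introns. TAN1 and COF1 lie apart from the rest on both arrays.

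The intron of TAN1, which encodes a protein needed for tRNA acetylation, stood at 1.35 on array 1 and 1.68 on array 2. The mean of 1.51 ± 0.14 is a 2.86-fold rise (limma adjusted p = 1.31e-08). Its intron probe gave nearly the same value on both arrays, 1.53 and 1.56, while its exon probe stayed close to the wild-type level at 0.18 and −0.12. The junction probe of TAN1 disagreed between the arrays, at −1.35 and 0.45, and its junction index of −0.48 ± 0.27 did not pass the test.

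The intron of COF1, which encodes the actin-severing protein cofilin, stood at 1.46 and 1.28 on the 2 arrays. The mean was 1.37 ± 0.17, a 2.59-fold rise (limma adjusted p = 2.43e-06). The intron probe itself was high on both arrays (1.36 and 1.03), and the exon probe lay slightly below 0 on both, with a mean of −0.18 ± 0.13. The junction probe averaged −0.35 ± 0.11 and missed the threshold (limma adjusted p = 0.0848).

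The other 6 raised introns lay between 0.48 and 0.64, a 1.39-fold to 1.56-fold rise, and were above 0 on both arrays. NCE101, named for a part in export of proteins outside the secretory pathway, stood at 0.35 and 0.82, with a mean of 0.58 ± 0.14 (limma adjusted p = 0.0137). VPS75, a histone chaperone gene, stood at 0.59 and 0.36, with a mean of 0.48 ± 0.13 (limma adjusted p = 0.0277). Their intron probes rose as well, by 0.93 and 0.43, so that with TAN1 and COF1 4 of the 8 introns also passed the test on the intron probe alone.

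For the remaining 4 genes the index reached the threshold while the intron probe did not. GCR1, an activator of glycolytic and ribosomal protein genes, is the clearest case. Its intron probe read −0.36 and 0.08 on the 2 arrays, its exon probe −0.89 and −0.58, and the index 0.54 and 0.65 (mean 0.59 ± 0.14, limma adjusted p = 0.0137). The exon probe of GCR1 fell by 0.74 ± 0.12 (limma adjusted p = 0.00021), and no such fall passed the test for the other 7 genes. APE2, an aminopeptidase gene, had an index of 0.49 and 0.79 with an exon probe at −0.49 and an intron probe at 0.15. MOB2, whose product binds the kinase Cbk1, had an index of 0.54 and 0.71 with an exon probe at −0.31 and an intron probe at 0.31. MAF1, the repressor of RNA polymerase III, had an index of 0.56 and 0.71 with an exon probe at −0.33 and an intron probe at 0.31. The junction probe of MAF1 fell by 0.60 ± 0.12 (limma adjusted p = 0.00743).

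**Figure D2:**
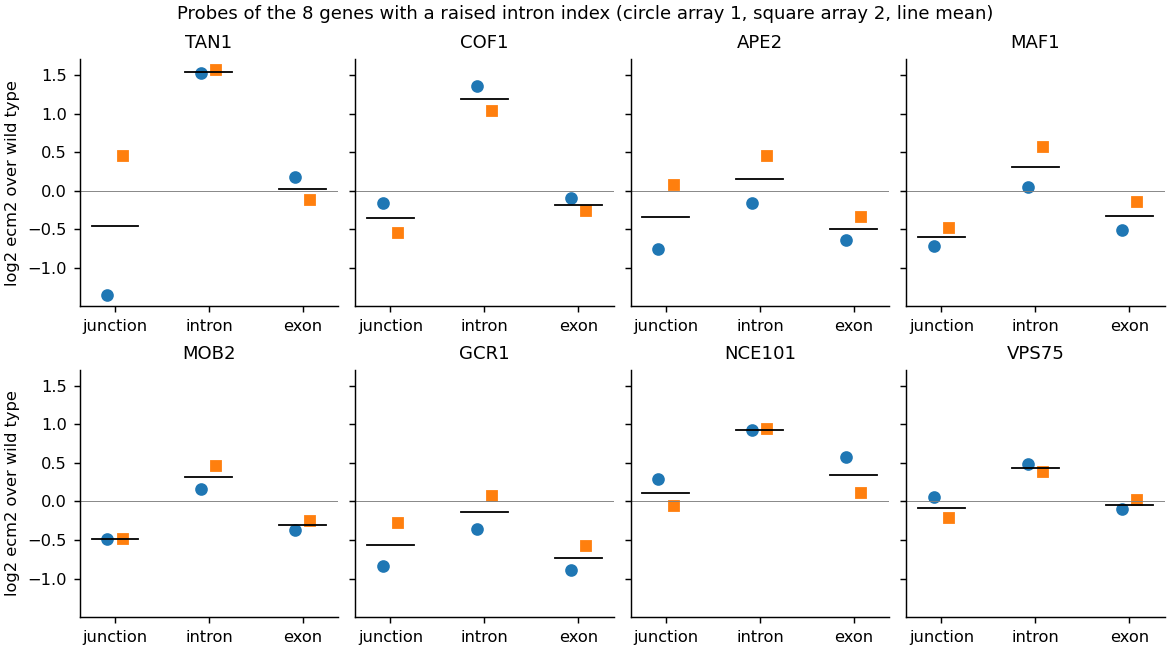
Junction, intron and exon probes of the 8 genes with a raised intron index (x axis) and their log2 ratio of ecm2 over wild type (y axis). Circles are array 1, squares array 2 and lines the mean of both. In TAN1, COF1, NCE101 and VPS75 the intron probe is raised, and in GCR1 the exon probe is lowered.

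TAN1 and COF1 were raised under all 11 alternative settings tried, with a highest limma adjusted p of 5.07e-05 and 0.0051. The other 6 were raised under 4 to 7 of them, and all 6 were lost when either array was left out. Just past the threshold lay NCE101, MAF1 and VPS75. Just short of it lay NHP6B at 0.57, ECM33 at 0.60 and UBC8 at 0.53, with limma adjusted p of 0.0635 for NHP6B and 0.064 for the other two. MPT5 had the third highest mean of all introns, 0.81 ± 0.26, but its arrays lay apart at 1.21 and 0.41, and it did not pass (limma adjusted p = 0.0802). It was named after its value was seen.

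Across strains, the TAN1 intron in ecm2 was exceeded in 5 of the other 17, with the highest mean in snu17 (2.70), and it stood at 0.00 in hsp104 and −0.06 in prp17. The COF1 intron was exceeded in 7 of the others, with the highest mean (4.44) in prp4-1a, which was held at 37 °C. It stood at 0.07 in hsp104 and 1.84 in prp17. The 2 introns thus took similar places in ecm2 and different places in prp17. Both ecm2 arrays lay above both hsp104 arrays for each intron.

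**Figure D3:**
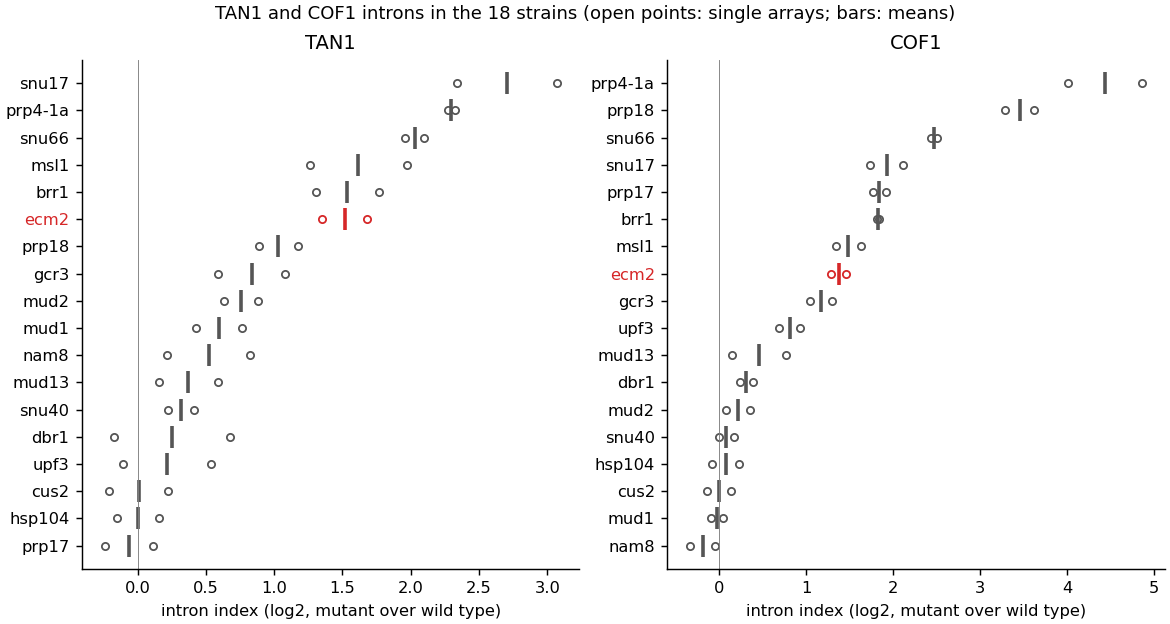
Intron index of TAN1 and COF1 (x axis, log2, mutant over wild type) in the 18 strains (y axis, ordered by mean). Open points are single arrays and bars are means, with ecm2 in red. The prp4-1a strain was held at 37 °C. TAN1 is near 0 in prp17 and at 1.51 in ecm2, while COF1 is at 1.84 in prp17 and 1.37 in ecm2.

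By gene group, 2 of 8 tested introns of actin and tubulin cytoskeleton genes were raised, COF1 and MOB2, with a group median of 0.05. The share over all introns tested was 3.98%. GCR1, a transcriptional activator, was placed in 2 lists and was the only raised intron in each. The list of splicing and mRNA export genes had 10 tested introns (median 0.17), and no splicing or export factor in it passed. The list of RNA polymerase II and chromatin genes had 4 (median 0.45). None of 16 introns of secretion and vacuole genes, 8 of ubiquitin-like conjugation and proteasome genes, 8 of mitochondrial genes, 7 of snoRNA host genes or 5 of kinase and phosphatase genes passed the test. Only 2 of the 8 meiotic gene introns could be tested, and neither passed.

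Introns studied for their own regulation did not pass the test in ecm2. That of RPL30, whose product represses its own splicing, stood at −0.54 and −0.25 (mean −0.40 ± 0.20, limma adjusted p = 0.439). YRA1, an mRNA export gene with an autoregulatory intron, disagreed between arrays at −0.61 and 0.13. RPL28 gave −0.60 and 0.17. DBP2, a gene of an RNA helicase, gave 0.09 and 0.27. REC107, a meiotic gene spliced with the aid of Mer1, gave −0.13 and −0.17. Among genes of splicing proteins, STO1 gave 0.38 and 0.54 and MUD1 gave −0.02 and 0.41. The lowest means in the whole set were RPL42B at −0.55, RPL6A at −0.54 and RPL22A at −0.47, and none of the 3 passed the test.

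In the 7 genes with 2 introns, 13 introns were tested and none passed, beside 8 of 201 (3.98%) over all introns tested. Their means ran from −0.23 for RPS22B intron 1 to 0.30 for DYN2 intron 2. The 2 introns of DYN2, a dynein light chain gene, read −0.02 and 0.30, and those of EFM5 0.19 and −0.06. The difference between the 2 introns of a gene was not tested.

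HMRA1, the silent copy of the gene for the a1 mating-type factor, has 2 introns, and its 7 probes had no certain role, so they entered neither index. They were tested in a fit of all named probes, chosen after the values were seen, in which 68 of 676 probes were raised (10.1%) and 17 lowered (2.51%). Probe 2 stood at 1.35 and 1.20 (mean 1.27 ± 0.13, limma adjusted p = 4.39e-08). Probe 4 stood at 1.34 and 1.16 (mean 1.25 ± 0.14), and probe 6 at 1.48 and 1.26 (mean 1.37 ± 0.12). All 3 were raised under each of the 6 settings run for them. Probes 1, 3, 5 and 7 had means of 0.10, 0.04, 0.40 and 0.11 and did not pass the test. High and low probes thus alternated along the gene. The same sequence lies at the mating-type locus of a cells, so the arrays cannot tell the 2 copies apart. In prp4-1a probes 2, 4 and 6 averaged 3.34, 3.31 and 2.03. Probes 1, 3, 5 and 7 averaged −2.30, −1.65, −1.69 and 0.25 there. The prp4-1a medians were 1.88 for intron probes, −1.77 for junction probes and −1.24 for exon probes. Whether probes 2, 4 and 6 are intron probes was not tested. They were higher than in ecm2 in 8, 8 and 6 of the other 17 strains.

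The 3 raised HMRA1 probes were higher in ecm2 than in hsp104, by 1.24, 1.20 and 1.46 (limma adjusted p of 5.74e-05, 0.000251 and 3.83e-06). Against prp17 the differences were 0.86, 0.97 and 1.51, again all past the threshold. Against msl1, probes 2 and 4 were lower in ecm2, by −0.67 ± 0.18 and −0.58 ± 0.19, and probe 6, at −0.26 ± 0.17, was not called different.

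**Figure D4:**
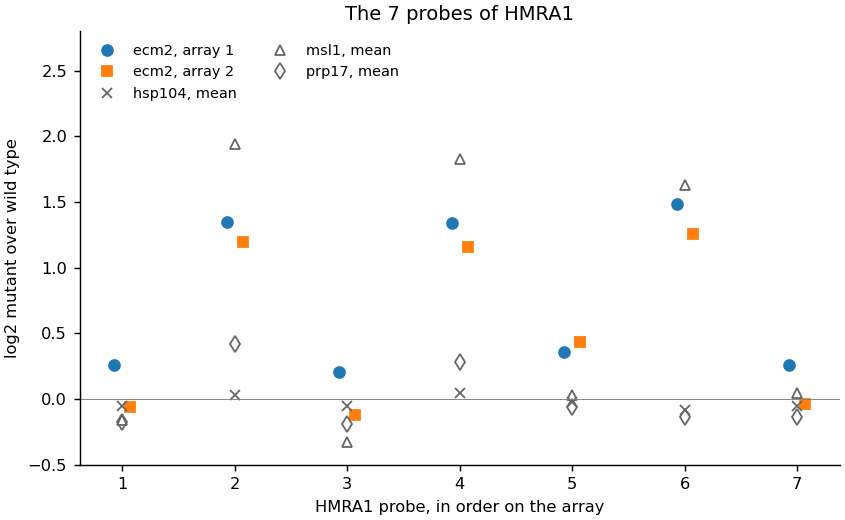
The 7 probes of HMRA1 in their order on the array (x axis) and their log2 ratio over wild type (y axis), with both ecm2 arrays as filled points and the means of hsp104, msl1 and prp17 as grey symbols. Probes 2, 4 and 6 are above 1 on both ecm2 arrays, and the other 4 are below 0.5.

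Taken alone, intron probes rose more often than the index. Of 202 tested, 28 were raised (13.9%) and none lowered, with 63 higher and 0 lower at an unadjusted p under 0.05, and the median was 0.23. Ribosomal protein genes held 17 of the 28 with 98 of the 202 tested, and the other genes held 11 with 104. In 14 of the 28 the exon probe of the gene was raised too, as in RPL17A, where the intron probe averaged 0.84 ± 0.14 and the exon probe 0.55 ± 0.12. RPL34B had the highest raised intron probe of a ribosomal protein gene, at 0.61 and 1.19 on the 2 arrays. Centring of the arrays by their exon and intronless probes left 8 raised intron probes, 3 in ribosomal protein genes and 5 in others, and leaving out either array left 5 to 10.

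The junction index was lowered for 6 of 217 tested (2.76%) and raised for none (limma, with 50 lower and 1 higher at an unadjusted p under 0.05). RPL7B intron 1, in a gene of the large ribosomal subunit, stood at −0.71 and −0.39 (mean −0.55 ± 0.11, limma adjusted p = 0.00626). SEC14, a phosphatidylinositol transfer protein gene, stood at −0.61 and −0.37 (mean −0.49 ± 0.11). YML6, a mitochondrial ribosomal protein gene, stood at −0.34 and −0.61 (mean −0.47 ± 0.09). RPL26A and RPL22A averaged −0.43 each, and KIN28, the kinase of the general transcription factor TFIIH, averaged −0.40.

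None of these 6 had a junction probe that fell by the test, and in RPL22A and RPL26A the exon probe rose. No call remained without array 1, while RPL7B intron 1 and YML6 remained without array 2. With array weights by mutant, which allow each strain its own spread, 43 were lowered and 1 raised. Most junction indices were on the low side, 196 of 217 on the mean, 193 on array 1 and 169 on array 2, with a median of −0.17. Between the 2 arrays the junction indices correlated at only 0.10, or 0.37 after removal of the dye term. For the intron index these correlations were 0.56 and 0.68. The median was lower than in ecm2 in 2 strains, at −0.34 in prp4-1a, held at 37 °C, and −0.18 in mud1. It was −0.16 in both prp17 and prp18, and −0.14 in upf3. In the remaining strains other than hsp104 it ran from −0.13 in gcr3 to −0.01 in dbr1. It was above 0 in hsp104 alone of the 18 strains, at 0.02.

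Junction probes alone gave 1 raised (0.461%) and 3 lowered (1.38%) of 217. RPS23B, of the small ribosomal subunit, was raised at 0.22 and 0.85. KEI1, a subunit of inositol phosphorylceramide synthase, was lowered at −0.66 and −0.90 (mean −0.78 ± 0.16), and its exon probe fell too. MPT5, a Puf family RNA-binding protein gene, was lowered at −1.003 and −0.28, and MAF1 is given above. Without array 1 or array 2 none of the 3 was lowered, and RPS23B remained raised without array 1.

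Exon probes, which follow the level of a gene's RNA, were raised for 56 of 227 genes (24.7%) and lowered for 5 (2.2%), with a median of 0.16. Ribosomal protein genes held most of the rise, with 46 of 97 raised and none lowered, 31 of 55 in the large subunit and 15 of 42 in the small. Their median was 0.33, against 0.03 for the 130 other genes, of which 10 were raised and 5 lowered. On array 1 the medians of the 2 classes were 0.38 and −0.01, and on array 2 they were 0.31 and 0.04. On the mean of both arrays 96 of 97 ribosomal protein genes were above 0, and RPS9A, at −0.07, was the exception. Ratios to wild type on one array are relative, so a change in every RNA per cell cannot be seen.

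RPL29 had the highest value, 0.93 and 0.62 on the 2 arrays (mean 0.78 ± 0.18, a 1.71-fold rise, limma adjusted p = 0.00461). RPL42B followed at 0.67 and 0.65 (mean 0.66 ± 0.15) and RPL37B at 0.86 and 0.44 (mean 0.65 ± 0.16). RPL22A, RPL36A and RPL26A averaged 0.62, 0.60 and 0.60, and each was above 0.5 on both arrays. Many ribosomal protein genes are near-identical pairs, such as RPL26A and RPL26B at 0.60 and 0.44, and probes could share RNA between the copies.

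The median of the ribosomal protein genes was higher in ecm2 than in any of the other 17 strains, where it ranged from −2.32 to 0.24. On the ratios without centring, 54 of the 97 genes had their highest strain mean in ecm2, against 6 of the 130 other genes. That tally was not taken after centring. The gap between the ribosomal protein genes and all others was wider in 2 other strains, mud1 and snu66. The count of raised exon probes depends on the scaling. The median exon probe moved down by 0.17 after the median of the exon and intronless probes was subtracted from each array. Then 23 exon probes were raised and 26 lowered, with ribosomal protein genes at 21 raised and 0 lowered and the other genes at 2 and 26. Centring on all named probes gave 11 and 23, with ribosomal protein genes at 10 and 0. When either array was left out, no exon probe was raised by the test.

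**Figure D5:**
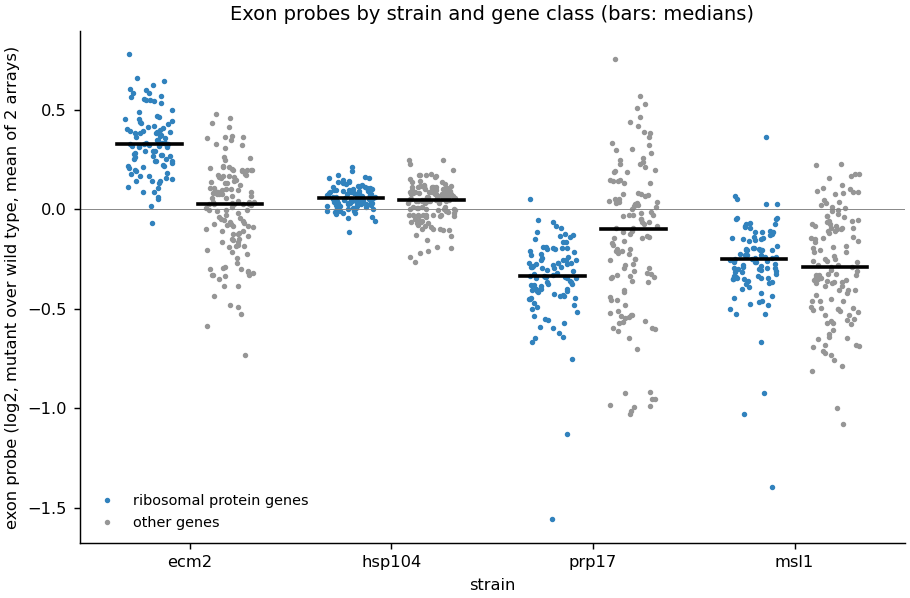
Exon probes (y axis, log2 mutant over wild type, mean of 2 arrays) in 4 strains (x axis), with ribosomal protein genes in blue, other genes in grey and black bars at the medians. In ecm2 the medians are 0.33 and 0.03, in hsp104 both are 0.05, and in prp17 the ribosomal protein genes are lower than the others.

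Outside the ribosomal protein genes, 3 of the 8 mitochondrial genes had raised exon probes, beside 24.7% of all exon probes tested. The count was 2 after centring on exon and intronless probes and 1 after centring on all named probes. QCR10 and QCR9, of the cytochrome bc1 complex, averaged 0.48 ± 0.14 and 0.43 ± 0.11. COX4, a subunit of cytochrome c oxidase, stood at 0.42 and 0.50 (mean 0.46 ± 0.12). The other 7 were SRB2, RPO26 and NCB2, of RNA polymerase II transcription, VMA10, of the vacuolar ATPase, and NCE101, EFM5 and YNL050C. They averaged 0.26 to 0.41, and SRB2 read 0.74 on array 1 against 0.08 on array 2.

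The 5 lowered exon probes were led by GCR1. EPT1, a phospholipid synthesis gene, stood at −0.64 and −0.54 (mean −0.59 ± 0.18). MEI4, a meiotic recombination gene, stood at −0.73 and −0.32 (mean −0.52 ± 0.14). KEI1 averaged −0.33 ± 0.10, mostly from array 2, where it was −0.62 against −0.05 on array 1. CIN2, a tubulin folding gene, averaged −0.30 ± 0.11. Without array 2 GCR1 alone remained lowered, and without array 1 none did. None of the 5 intronless genes passed the test, with ADH1 at −0.08, FAS1 at 0.03, GAL1 at −0.00, HIS4 at −0.06 and GAL10 at −0.22. After centring on exon and intronless probes ADH1 (−0.26 ± 0.07, limma adjusted p = 0.0147) and GAL10 (−0.39 ± 0.10, limma adjusted p = 0.00966) were lowered.

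Differences from other strains were taken in the same fit. Against hsp104, 2 of 192 introns were higher in ecm2 (1.04%) and none lower, and they were TAN1, by 1.51 ± 0.20 (limma adjusted p = 1.06e-05), and COF1, by 1.30 ± 0.24 (limma adjusted p = 0.00148). COF1 lost its call without array 1 of ecm2 or array 1 of hsp104. For the other 6 raised introns a difference from hsp104 was not called. Of 212 junction indices none was called different from hsp104, with 25 at an unadjusted p under 0.05. Of 224 exon probes 1 was lower (0.446%) and none higher, with 38 at an unadjusted p under 0.05. It was GCR1, by −0.71 ± 0.16 (limma adjusted p = 0.0444), which lost its call without any 1 of the 4 arrays. No ribosomal protein gene was called different from hsp104, where their median was 0.05.

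Against prp17, 4 of 196 introns were higher in ecm2 (2.04%) and 28 lower (14.3%). TAN1 was higher by 1.58 ± 0.20. RPL20B (0.85 ± 0.25), HNT1 (0.84 ± 0.24) and RPS9A (0.74 ± 0.24) were higher too, but in RPL20B and HNT1 the ecm2 values were −0.07 and −0.09, and the prp17 values were −0.92 and −0.93. The lowest differences were PMI40, an enzyme of mannose metabolism, at −1.77 ± 0.25, then KEI1 at −1.32 ± 0.23 and KIN28 at −1.30 ± 0.21. All 3 stood between 0.10 and 0.27 in ecm2 and between 1.39 and 2.04 in prp17. COF1 was not called different, at −0.47 ± 0.24 (limma adjusted p = 0.197). Without any 1 of the 4 arrays of ecm2 and prp17, 1 intron was higher and 9 to 12 were lower.

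Of 216 junction indices, 5 were higher in ecm2 than in prp17 (2.31%) and none lower. POP8, of the RNase P and RNase MRP enzymes, was higher by 1.58 ± 0.15 and DCN1, of the cullin neddylation pathway, by 1.25 ± 0.15. ARF2, OM14 and VPS75 made up the rest. POP8 and DCN1 remained without any 1 of the 4 arrays, whereas the total was 2 without array 2 of either strain and 3 without array 1 of ecm2. The ecm2 values of these 5 lay between −0.21 and 0.20, and the prp17 values between −1.80 and −0.72. Of 225 exon probes, 122 were higher in ecm2 (54.2%) and 9 lower (4%), led by RPS14B at 1.71 ± 0.19 and COX4 at 1.45 ± 0.18. After centring on exon and intronless probes, an alternative chosen after seeing the data, 34 were higher and 47 lower. MEI4 and UBC13 were the lowest, at −0.72 ± 0.20 and −0.68 ± 0.16. Without array 1 of prp17 the counts were 61 higher and 3 lower, the fewest when 1 array was left out.

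Against msl1, 160 of 183 introns were lower in ecm2 (87.4%) and none higher, with a median difference of −1.15. EFM5 intron 2 differed by −2.83 ± 0.24, RIM1, of mitochondrial DNA maintenance, by −2.14 ± 0.27 and RUB1, a ubiquitin-like protein gene, by −2.07 ± 0.24. All 3 stood between −0.06 and 0.18 in ecm2. TAN1 and COF1 were not called different from msl1, with differences of −0.10 ± 0.20 and −0.11 ± 0.24. No junction index of 211 was called different, with 11 at an unadjusted p under 0.05. Of 222 exon probes 129 were higher in ecm2 (58.1%), led by RPS22B at 1.50 ± 0.19 and COX4 at 1.27 ± 0.18, and 1 was lower (0.45%), RPS9A at −0.44 ± 0.18. With the same centring 17 were higher and 14 lower. Without array 2 of msl1 70 were higher and 2 lower, and without either ecm2 array RPS9A was no longer lower.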

How the data were processed

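The authors deposited 1 log2 ratio per spot, with image processing not given in the sources used here. As a check of base 2, 44 of 148 differences between recurring values matched logarithms of ratios of whole numbers up to 400 within 3e-08 at base 2. The matches numbered 0 for natural logarithms, 2 at base 10 and 3 at base 3. Spots at exactly 0 (135 on array 1 and 35 on array 2) and blanks (676 and 995) were treated as missing, the 4 spots of a probe were averaged, and no scaling was added. The median SD over the spots of a probe was 0.117 on array 1 and 0.104 on array 2. Gene symbols came from the annotation of the array; 140 probes had none, and the role of 21 was uncertain.

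The labelled channel of the mutant set the sign of each ratio. All 36 arrays entered 1 fit (limma 3.58.1 in R 4.3.3, lmFit and eBayes) with a coefficient per strain and a common dye term, with Benjamini-Hochberg adjustment of p-values over each measure. The fit includes prp4-1a, held at 37 °C for 2 h against its own wild type, and dbr1, for which pooled RNA is described. Where either ecm2 array had no value, the feature was left out. Members and gene lists were chosen with earlier results of these data known. Genes named are those raised or lowered in the intron and junction index, the 6 highest raised and all 5 lowered exon probes, the first in each strain difference, those nearest the threshold, called members of lists and a set of studied introns; the others named for exon, intron and junction probes, and HMRA1, ACT1 and MTR2 probes, were chosen after their values were seen. On simulated data, 20 features of a measure were changed at each size, and changes of size 1 were all recovered. Of those of size 0.5, 4 of 20 were recovered among 201 introns, 19 of 20 among 217 junction indices and 18 of 20 among 227 exon probes. False calls were 0 of 161 unchanged introns, 4 of 177 unchanged junction indices and 2 of 187 unchanged exon probes. Intron lengths and splice sites were not analysed here. Alternatives covered the samples, dye term, zeros, spots, scaling, spread, array weights, threshold and each array left out; those for HMRA1, the centred strain differences and arrays of the other strains were chosen after seeing the data.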

Additional observations from a re-analysis of the deposited data

Results flagged for a closer look

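The number of features that differed between ecm2 and another strain was taken from the contrasts in the fit. The intron index differed for 2 introns from hsp104, for 32 from prp17 and for 160 from msl1. The junction index differed for 5 junctions from prp17. The exon probes differed for 1 gene from hsp104, for 131 from prp17 and for 130 from msl1.

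Probes without a gene symbol entered none of the comparisons. Of 62 with values on both ecm2 arrays, 24 passed the limma test, 3 raised (4.84%) and 21 lowered (33.9%), and none of 65 did in hsp104. None passed in cus2, nam8 or snu40 either. In prp18, 28 were raised and 12 lowered of 59, in gcr3 9 and 26 of 62, and in snu66 4 and 18 of 55. Before removal of the dye term, most of the probes lowered in ecm2 read about −1 on array 1 and closer to 0 on array 2. Among them, 1 read −6.67 on array 1 and 3.58 on array 2. After removal of the dye term that probe read −1.48 and −1.61. Over the 62 probes the correlation between the 2 ecm2 arrays was −0.89 before that removal and 0.71 after it.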

How the results depend on the processing

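No called value changed sign under any setting run. Among the single features given, 2364 values kept their side of the threshold, 108 passed it where they had not and 135 no longer did. The ecm2 counts as reported were 8 raised introns, 6 lowered junction indices, 56 raised and 5 lowered exon probes, 28 raised intron probes, and 1 raised and 3 lowered junction probes. With deletion strains at 26 °C only they became 15 raised and 2 lowered introns, 2 raised and 58 lowered junction indices, 17 lowered exon probes, 74 raised and 1 lowered intron probes, and 11 raised and 20 lowered junction probes. With array weights by mutant they became 24 and 9 introns, 1 and 43 junction indices, 19 lowered exon probes, 110 and 4 intron probes, and 7 and 16 junction probes. The weights also gave 16 introns higher and 3 lower than hsp104, 1 and 42 junction indices and 17 and 5 exon probes, 20 and 66 introns and 16 and 5 junction indices against prp17, and 2 higher junction indices and 9 lower exon probes against msl1. From the ecm2 arrays alone, 3 introns and 9 intron probes were raised, 1 junction probe was lowered, and junction indices, exon probes and raised junction probes had 0 calls. Without a dye term the counts were 2 introns, 2 lowered junction indices, 23 and 3 exon probes, 14 intron probes, and 0 and 1 junction probes. The counts against prp17 were then 1 higher and 9 lower introns, 3 higher junction indices and 3 lower exon probes, and the lower exon probes against hsp104 and msl1 were 0. At an adjusted p under 0.01 they were 3 introns, 3 junction indices, 19 and 1 exon probes, 13 intron probes and 0 raised junction probes. At that threshold prp17 gave 1 and 9 introns and 2 lower exon probes, msl1 81 higher and 0 lower exon probes, and hsp104 0 lower exon probes. With zeros kept, 4 introns were raised, and 2 junction probes were raised and 1 lowered. With at least 2 usable spots, 10 junction indices were lowered. Centring on all named probes gave 11 and 23 exon probes, 13 intron probes, and 2 and 31 junction probes. Centring on exon and intronless probes gave 23 and 26 exon probes, 8 intron probes, and 0 and 17 junction probes. For the strain differences that centring, chosen after seeing the data, gave 1 and 3 exon probes for hsp104, 34 and 47 for prp17, and 17 and 14 for msl1. Leaving out either ecm2 array gave 2 raised introns each time, 0 to 2 lowered junction indices, 0 raised and 0 to 1 lowered exon probes, 5 to 10 intron probes, and 0 to 1 raised and 0 lowered junction probes. Leaving out 1 array of ecm2 or of the strain compared gave 1 to 2 introns higher and 0 exon probes lower than hsp104. Against prp17 it gave 1 higher and 9 to 12 lower introns, 2 to 5 higher junction indices, and 61 to 113 higher and 3 to 6 lower exon probes. Against msl1 it gave 127 to 146 lower introns, and 70 to 103 higher and 0 to 2 lower exon probes. The cause of these moves was not tested. No paired analysis was possible because the replicate numbers that all strains share mark the dye orientation, which the dye term of the fit already holds.

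Spread was pooled over 36 arrays, and the ecm2 arrays differed 0.905 times as much as the median strain at introns, 1.14 times at exon probes and 1.37 times at junction indices. A missed threshold does not show that a feature did not differ, since few intron changes of size 0.5 were recovered in simulation. The files used hold no intensities, so signal over background is unknown, and the 29 untested introns are without a value on an array rather than unchanged.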

Other observations

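Of the other probes without a certain role, the ACT1 probe in position 5 was raised, at 0.66 and 0.41 on the 2 arrays (mean 0.54 ± 0.14, limma adjusted p = 0.0122), and the one in position 6 stood at 0.33 and 0.44 without passing the test. The ACT1 exon probe, at 0.06 and 0.01, lay close to the wild-type level. In msl1 the same 2 probes averaged 0.72 and 0.77, and in hsp104 0.10 and 0.09. MTR2, an mRNA export gene with 9 probes, had 1 lowered probe, in position 7, at −0.82 and −0.30 (mean −0.56 ± 0.14, limma adjusted p = 0.0154).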
